A study of Homo sapiens with 24 samples.

Results

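UBR4, MDN1, POLE and MYCBP2 are 4 protein-coding genes taken from the 9792 genes that held a window in any of 6 deposited lists of eCLIP windows. They were picked from these lists for the most windows of SNRNP200 in whole cells and none in the cytoplasmic fraction, so their high whole cell numbers and missing cytoplasmic windows are given as a description and without a test. The 4 genes held 1005 of the 182066 untreated whole cell windows and 858 of the 117690 whole cell windows with arsenic. They held 1 of 4182 untreated cytoplasmic windows, 0 of 6773 cytoplasmic windows with arsenic, 31 of 15831 CAPRIN windows and 4 of 3023 G3BP1 windows. The choice held in full for UBR4, MDN1 and POLE, while MYCBP2 had 1 untreated cytoplasmic window.

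All libraries came from HEK293, an established human cell line derived from embryonic kidney. In eCLIP, RNA crosslinked to a protein is recovered by immunoprecipitation (IP), and enrichment is read against an input library that was not precipitated. SNRNP200 was mapped in whole cells and in cytoplasm, in each case untreated or with 500 µM arsenic, and CAPRIN and G3BP1 were mapped in cells whose sample characteristics give no treatment. Each of these 6 experiments had 2 input and 2 IP replicates, and whether these were separate cultures is not in the labels, so p-values measure only the spread between these samples.

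SNRNP200, also called Brr2, is an RNA helicase of the U5 particle that separates U4 from U6 RNA when the spliceosome is activated, and it stays in the machine during both steps of splicing. Crosslinks of such a protein can therefore fall on the intron ends and on the neighbouring exons of a pre-mRNA in the nucleus. CAPRIN1 and G3BP1 are mRNA-binding proteins that partner in stress granules, which assemble in the cytoplasm when translation is blocked, for instance by arsenic compounds.

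The products of the 4 genes are very large proteins of unrelated function. UBR4 is a ubiquitin ligase of the N-degron pathway. MDN1, or midasin, is an AAA ATPase that strips assembly factors from the precursor of the large ribosomal subunit. POLE is the catalytic subunit of DNA polymerase epsilon, which copies the leading strand, and MYCBP2 is a ubiquitin ligase known for its part in axon growth. All 4 genes lie on the minus strand of GRCh38.p14, UBR4 at chr1:19074510-19210266, MDN1 at chr6:89642498-89819794, POLE at chr12:132623762-132687342 and MYCBP2 at chr13:77044657-77327094. MYCBP2 spanned 282.4 kb, MDN1 177.3 kb, UBR4 135.8 kb and POLE 63.6 kb. Among 8741 listed genes with coordinates, 96.8%, 92.4% and 88.7% were shorter than MYCBP2, MDN1 and UBR4, and 71.7% were shorter than POLE, so POLE was not giant by its genomic length.

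Short stretches of 2 transcripts show where CAPRIN windows reached the start of these genes, which is the place SNRNP200 and CAPRIN windows had in common in MYCBP2 and not in UBR4. They come from RefSeq promoter sequences on GRCh38.p14, are written 5′ to 3′ on the minus strand, and capitals mark the start codon. The first is the 5′ end of the UBR4 start codon window, chr1:19210219-19210248, with 76.7% GC. The second is the 5′ end of the first MYCBP2 window in the 5′ UTR, chr13:77327065-77327094, with 70.0% GC and no start codon.
UBR4 start codon: ATGgcgacgagcggcggcgaagaggcggcg
MYCBP2 5′ UTR: agcttcccattgcgggtagccccggcggtg

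A window is a stretch of at most 100 bases that the authors listed as enriched in both replicates with q under 0.2. Without arsenic, UBR4 held 335 whole cell windows, MDN1 234, MYCBP2 224 and POLE 212. By this number they ranked 2, 5, 6 and 8 among all genes. With arsenic UBR4 held 286, MDN1 218, MYCBP2 194 and POLE 160, and they ranked 1, 3, 5 and 7. None of these windows named a further gene.

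The genes just outside the choice are given by the same window numbers that it used. Among genes with no cytoplasmic window with arsenic, POLE with 160 whole cell windows was closely followed by NBPF20 with 158, CHD2 with 157 and USP24 with 149. Among genes with no untreated cytoplasmic window, POLE with 212 whole cell windows was followed by NBPF19 with 183, BIRC6 with 178 and ANKRD36 with 174. NBPF20, of a family of near-identical copies whose reads can be split between members, had 213 windows and no cytoplasmic one and is not among the 4. MYCBP2's untreated cytoplasmic window lay in its 3′ UTR at chr13:77044927-77045016. It held 19 IP reads and 1 input read, with replicate log2 enrichments of 3.34 and 3.89 and a highest q of 0.142, and it was in neither whole cell list.

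A missing cytoplasmic window was not rare among genes of this size. Of 142 genes with at least 100 untreated whole cell windows, 56 had no untreated cytoplasmic one and 86 (60.6%) had at least 1. Of the 9 genes with at least 200, 5 had one. The cytoplasmic lists were also far shorter than the whole cell lists, and their library totals were not used here, so depth is unknown and a missing window is not evidence of absent binding. Of the 4182 untreated cytoplasmic windows 3032 (72.5%) were in UTRs, 1035 (24.7%) in coding sequence and 3 in introns at a splice site, and 742 (17.7%) were also whole cell windows. In the 4 genes together coding sequence held 43.9% and splice-site introns 41.6% of the untreated whole cell windows, while UBR4 and MDN1 had no untreated whole cell window in a UTR and POLE and MYCBP2 had 2 each.

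**Figure D1:**
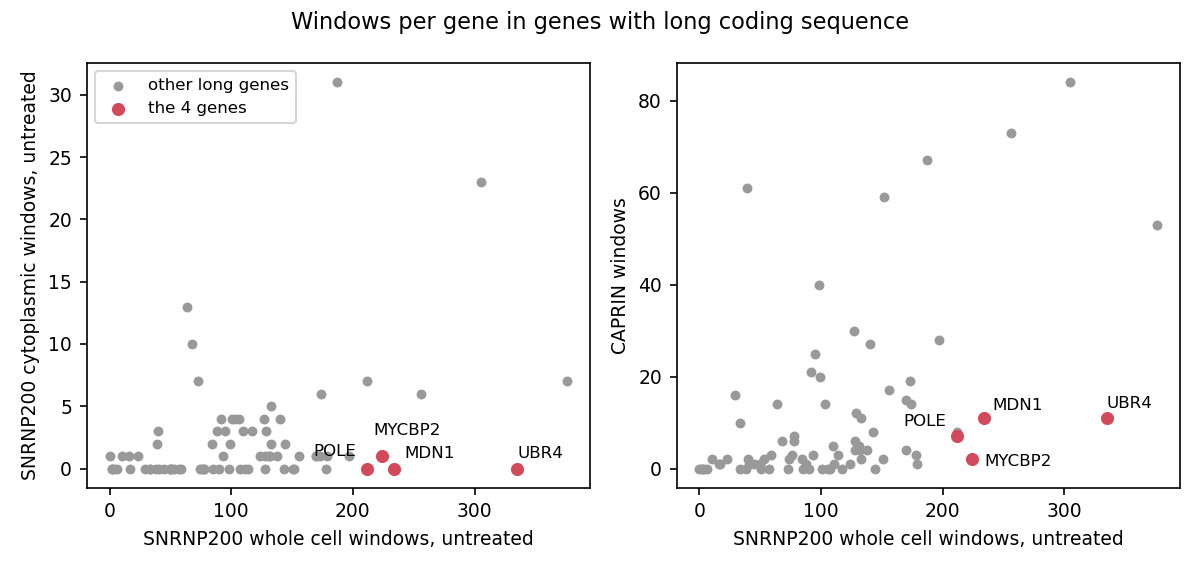
Each point is a gene of a list of genes with long coding sequence, with its number of untreated SNRNP200 whole cell windows on the horizontal axis. The vertical axis is the number of untreated SNRNP200 cytoplasmic windows on the left and of CAPRIN windows on the right, and the 4 genes in red sit at 0 or 1 on the left and between 2 and 11 on the right.

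Per kilobase of gene, the windows were densest in POLE, with 3.33 without arsenic, followed by UBR4 with 2.47, MDN1 with 1.32 and MYCBP2 with 0.793. The median of 8741 genes was 0.426. With arsenic the order was the same, at 2.52, 2.11, 1.23 and 0.687 beside a median of 0.266 over 7927 genes. The windows were spread over the whole of each gene but not evenly. With each gene divided into 4 stretches of equal length from 5′ to 3′, those of MDN1 held 12.4%, 18.4%, 37.2% and 32.1% of its untreated windows. MYCBP2 had a like tilt to the 3′ side, with 17.4%, 20.5%, 31.7% and 30.4%. POLE leaned the other way, with 32.1%, 30.2%, 16.5% and 21.2%. In UBR4, with 17.0%, 33.7%, 23.3% and 25.97%, the stretch after the 5′ one held most.

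**Figure D2:**
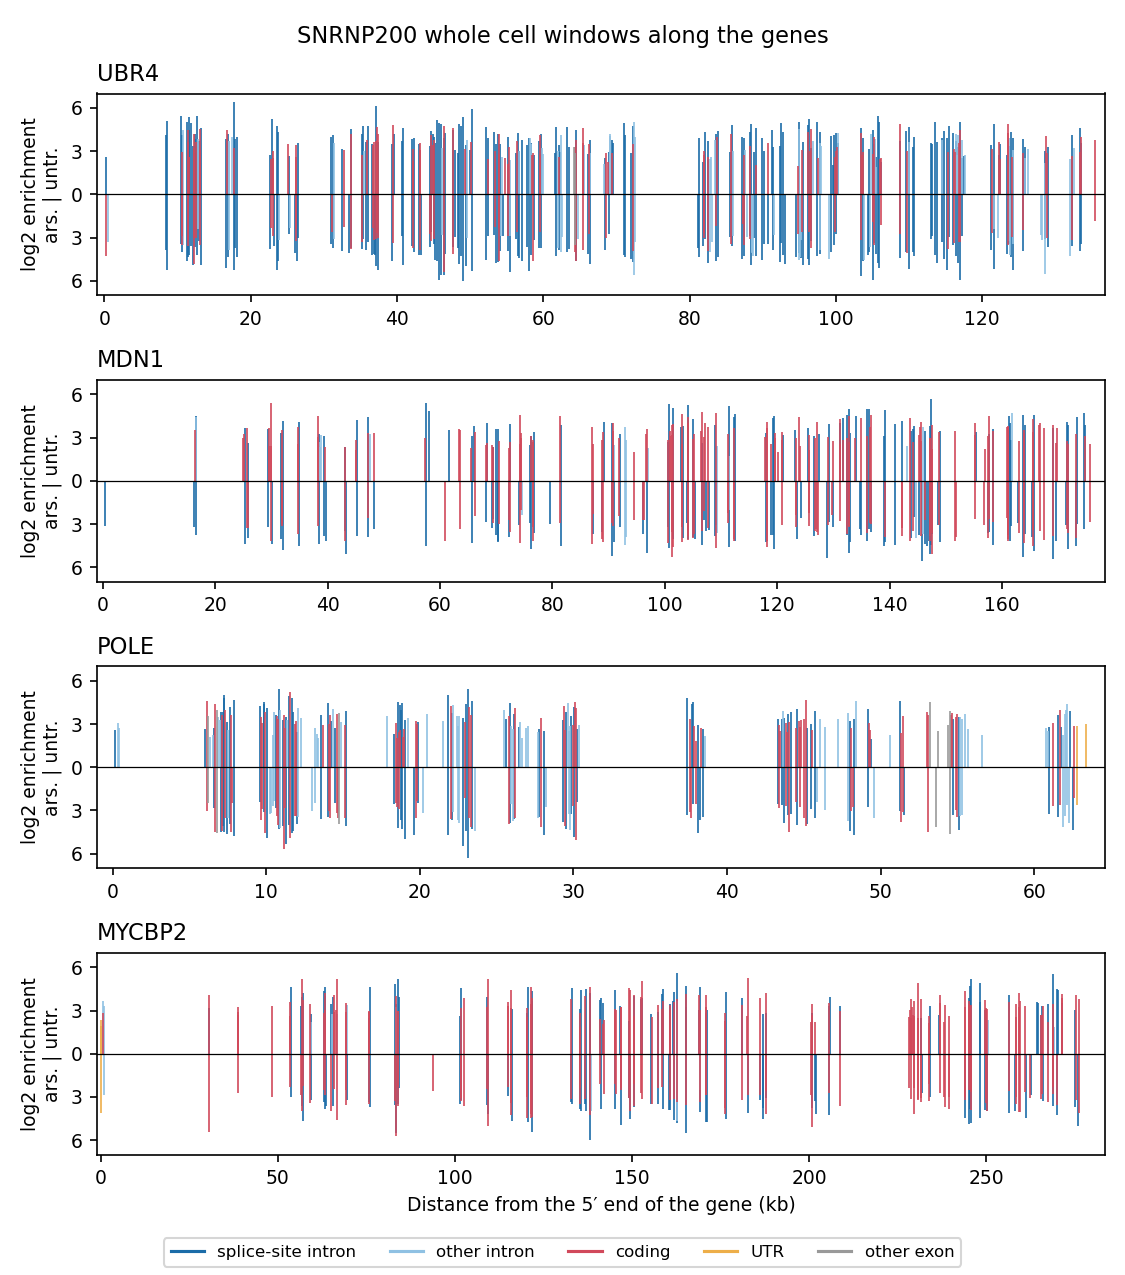
Vertical lines are SNRNP200 whole cell windows at their distance in kb from the 5′ end of each gene, as long as their mean log2 enrichment, upwards without arsenic and downwards with it, and coloured by feature type. MDN1, UBR4 and MYCBP2 have fewest windows in the 5′ one of 4 equal stretches (12.4%, 17.0% and 17.4% of the untreated windows), where POLE has most (32.1%).

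The 4 genes divided by where their windows lay. UBR4 was rich in introns directly at a splice site and MDN1 and MYCBP2 in coding sequence. POLE had the largest share of the 4 in intron windows not directly at a splice site. Of UBR4's untreated windows 175 (52.2%, 95% exact binomial interval 46.7 to 57.7) were intron windows at a splice site, 86 of them at a 5′ site, 82 at a 3′ site and 7 in introns so short that they adjoin both. This was the highest share among the 142 genes with at least 100 windows, whose median was 37.4%. It was also the highest, at 63.2%, among 229 genes with at least 50 windows at q under 0.05, and with arsenic it was 59.4% and ranked 2 of 48. The ranks were computed after the shares had been seen. Among windows with at least 20 IP and 10 input reads UBR4's share was 23.1%, of 13 windows. The median input was 2 reads in UBR4's untreated splice-site windows and 5 in its coding windows, so this minimum falls more on the former.

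In MDN1 136 of 234 untreated windows (58.1%, interval 51.5 to 64.5) and in MYCBP2 129 of 224 (57.6%, interval 50.8 to 64.1) lay in coding sequence. They ranked 10 and 13 of the 142 genes, whose median was 39.3%. With arsenic MYCBP2's share of 57.7% was the highest of 48 genes with at least 100 windows, and MDN1's 48.2% ranked 4. UBR4 and POLE had 31.6% and 33.0% without arsenic. Intron windows not directly at a splice site made up 26.9% of POLE's untreated windows (57 of 212). Such windows were 15.5% of UBR4's, 5.98% of MDN1's and 4.46% of MYCBP2's, beside 13.3% of all windows. Of POLE's 57, 23 were near both splice sites, 14 near a 5′ site, 11 near a 3′ site and 9 deep in introns. POLE's share ranked 37 of the 142 genes, and with q under 0.05 it was 13% and ranked 65 of 229, so it was not particular to POLE. Deep in introns MYCBP2, the longest of the 4, had no window in either list, and POLE, the shortest, had 9 without arsenic and 2 with it.

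**Figure D3:**
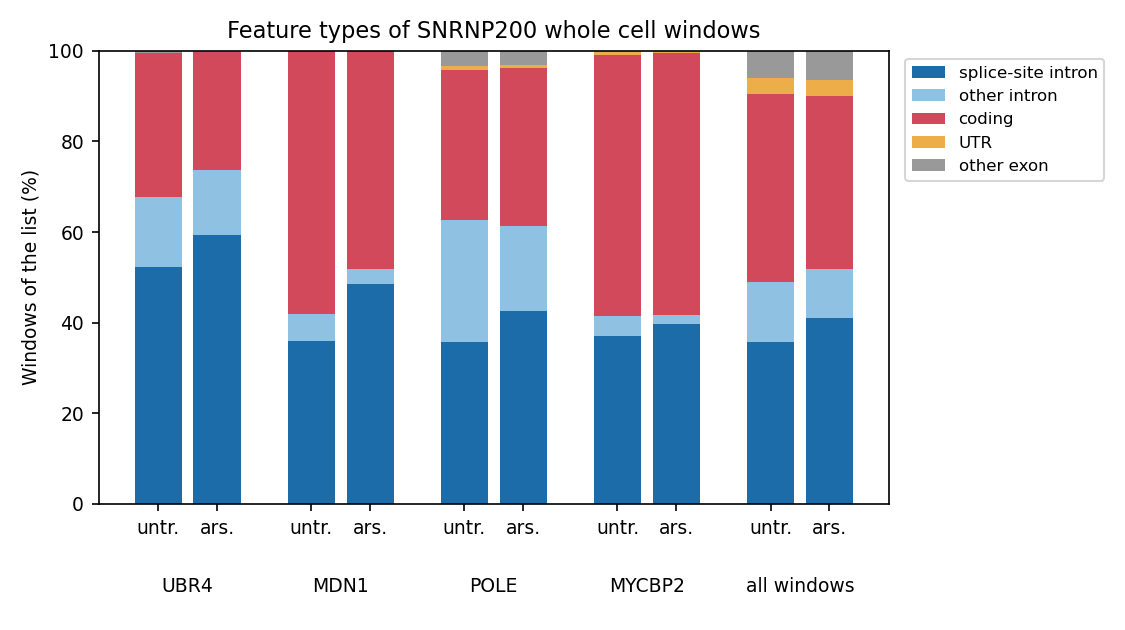
Bars give the percentage of SNRNP200 whole cell windows in each feature class, untreated (untr.) and with arsenic (ars.), for the 4 genes and for all windows of the list. Splice-site introns take 52.2% of UBR4's untreated windows against 35.7% of all, coding sequence takes 58.1% of MDN1's and 57.6% of MYCBP2's, and other introns take 26.9% of POLE's.

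Windows on introns at a splice site often continued a listed exon window, least often in UBR4. Of UBR4's 86 untreated windows at a 5′ splice site 44 (51.2%, exact binomial interval 40.1 to 62.1) touched a listed exon window, against 68.3% of all such windows. The share was 72.5% in MDN1, 73.5% in POLE and 84.6% in MYCBP2, with 33 of 39. With arsenic UBR4's share was 40.7% and that of all 57.7%. At 3′ sites without arsenic it was 47.6% in UBR4, 53.3% in MDN1, 59.5% in MYCBP2 and 77.1% in POLE. UBR4's interval there was 36.4 to 58.9, and the share of all such windows was 56.0%. Neighbouring windows share reads, so these intervals are not a test against the shares of all windows. The listed coding windows of each coding region were also taken as 1 stretch. Where the end of a coding region was not itself listed, a splice-site window beyond it was not counted. Splice-site windows directly adjoined the stretch on both sides in 19 of 77 regions in UBR4 and 20 of 47 in POLE. The numbers were 10 of 76 in MYCBP2 and 3 of 88 in MDN1. With arsenic MDN1 had 13 of 72. The most windows in 1 coding region were the 8 of MYCBP2 at chr13:77097370-77098916, which together held 159 IP and 36 input reads.

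Base composition differed widely between the genes. The median GC fraction of splice-site windows was 0.30 in MYCBP2, 0.41 in MDN1, 0.45 in UBR4 and 0.56 in POLE, and 0.45 over all such windows.

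Read numbers per window were like those of the lists as a whole, except in POLE. The median window held 29 IP reads in UBR4, 23 in MDN1 and MYCBP2 and 46 in POLE without arsenic, beside 28 over all windows. In total POLE's windows held 11490 IP and 1263 input reads, UBR4's 10826 and 1193, MYCBP2's 6079 and 1034 and MDN1's 6062 and 876. In each gene the windows at splice sites had a higher median log2 enrichment than those in coding sequence. The 2 medians were 3.93 and 3.20 in UBR4, 3.88 and 3.22 in MDN1, 3.69 and 3.23 in POLE and 3.74 and 3.29 in MYCBP2. Over all windows of the list they were 3.84 and 3.29, so this order was not particular to the 4 genes.

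The highest windows among those with at least 20 IP reads were all in introns at a splice site. In UBR4 without arsenic it was chr1:19192541-19192640, at a 3′ site, with replicate log2 enrichments of 6.02 and 6.84 from 45 IP reads and 0 input reads. With arsenic the same window had 4.97 and 5.53, and the highest was another 3′ splice-site window, chr1:19161148-19161247, with 5.77 and 6.20 and with 5.32 and 5.39 when untreated. The replicates of the first window did not overlap between treatments, being higher without arsenic. Those of the second did not overlap either, being higher with it. Each window was picked as the highest of its own list, which by itself favours a lower value in the other list. These directions are therefore not a test of arsenic, and the same limit holds for the highest windows of MDN1 and MYCBP2 below. Replicates did not overlap in 32.5% of all shared whole cell windows.

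POLE had the same highest window in both lists, the 3′ splice-site window chr12:132664149-132664248. Its replicates were at 4.71 and 6.20 without arsenic (43 IP reads) and at 6.23 and 6.29 with it (69 IP reads), and no input read fell in it in either experiment. Its untreated replicates lay 1.49 apart on the log2 scale, so the groups were adjacent rather than clearly separate.

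In MDN1 the highest untreated window, chr6:89672364-89672446 at a 3′ splice site, had 5.63 and 5.68 (26 IP and 0 input reads) and with arsenic 4.14 and 4.80. The highest with arsenic, chr6:89674004-89674103 at a 5′ splice site, had 5.52 and 5.58 from 35 IP and 0 input reads and was not in the untreated list. In MYCBP2 the highest untreated window, chr13:77164354-77164453 at a 5′ splice site, had 5.36 and 5.87 and with arsenic 4.32 and 5.28. All of these highest windows but that of UBR4 with arsenic, which had 1, held no input read.

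The comparison of whole cells with and without arsenic asks where SNRNP200 sat on the same transcripts under stress. Fewer windows were listed with arsenic over the whole series, 64.6% of the untreated number, and the 4 genes lay above this. MDN1 had 93.2% of its untreated number, MYCBP2 86.6%, UBR4 85.4% and POLE 75.5%, beside a median of 72.7% over the 142 genes. The 4 genes were picked for many whole cell windows and the 142 for many untreated ones. Both choices can move these shares, which are therefore a description. Of the untreated windows 71.9% were listed again with arsenic in UBR4 (241 of 335), 67.0% in POLE, 66.5% in MYCBP2 and 64.5% in MDN1, against 50.1% of all. Genes with many windows have more of them listed again in general, the median of the 142 being 61.2%.

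Splice-site windows of UBR4 were listed again more often than its other windows. There 155 of 175 (88.6%) recurred, against 57.0% of all splice-site windows and a median of 75.5% in the 142 genes, while 66 of its 106 coding windows (62.3%) and 19 of its 52 windows in other introns (36.5%) did. POLE had the same order, with 84.2%, 74.3% and 36.8%, and so had MDN1, with 75%, 61.0% and 35.7%. MYCBP2 differed: 72.9% of its coding windows and 62.7% of its splice-site windows recurred. In each gene the windows not listed again held fewer IP reads than those that were, with untreated medians of 22 and 31 in UBR4, 21 and 25 in MDN1, 29.5 and 54.5 in POLE and 16 and 26 in MYCBP2.

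In the lists as deposited MDN1 had more splice-site windows with arsenic than without, 106 and 84, and the other 3 genes had fewer. At 3′ splice sites it had 44 and 30 and at 5′ sites 60 and 51, while its coding windows numbered 105 and 136. The ratio of 126% for splice-site windows exceeded that of 98.6% of the 142 genes. It was 64.4% among windows with q under 0.05. UBR4 had 97.1% of its untreated number, MYCBP2 92.8% and POLE 89.5%, close to the median of 91.2% over the 142 genes, and 74.2% held over the whole list. In lists of equal length all 4 genes were above 100%, MDN1 at 166%, MYCBP2 at 138%, UBR4 at 118% and POLE at 117%. By IP reads MDN1 had 122%, UBR4 112%, MYCBP2 105% and POLE 77.0%. Equal length was reached by shortening the untreated list, which cannot lower this ratio in any gene. IP reads in all splice-site windows of the lists numbered 2595002 without arsenic and 1939693 with it. Other values over the whole list or the 142 genes are not given for equal length, IP reads or q under 0.05. Whether the 4 genes differ from other single genes there is therefore not known. This ratio was chosen after the data had been seen.

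In windows found in both lists the enrichment itself was tested with limma on the 2 replicate values of each treatment. Over all 91143 shared windows 0 passed an adjusted p of 0.05 (0%), and 4076 (4.47%) had an unadjusted p under 0.05. Of the 683 shared windows of the 4 genes 0 passed, the smallest limma adjusted p being 1.00, and 29 (4.25%) had an unadjusted p under 0.05, a share near that of all windows. The other limma settings tried also called 0. In simulated data for this comparison with 91143 windows, limma recovered 5% of differences of log2 3, 62.5% of log2 5 and 100% of log2 8, so most differences of log2 3 or less would have been missed with these replicates. With 2 samples against 2 an exact permutation test cannot go below 0.333.

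The replicates with and without arsenic did not overlap in 227 of the 683 windows, 113 higher with arsenic and 114 lower. Over all shared windows 15.6% were higher without overlap and 16.9% lower, 32.5% in all, and the share of the 4 genes, 33.2%, was near it. In MDN1 32 of 151 were higher and 22 lower, and in MYCBP2 23 of 149 were higher and 35 lower. The median difference, arsenic minus untreated, was 0.27 in MDN1, 0.03 in UBR4, -0.02 in POLE and -0.16 in MYCBP2 on the log2 scale, and -0.01 over all shared windows. Under other settings the sign of this median turned in UBR4 (-0.07 to 0.33), POLE (-0.28 to 0.21) and MYCBP2 (-0.31 to 1.65) and not in MDN1 (0.14 to 1.10). The authors normalised the lists separately, so a shift of a whole gene is known only relative to that last value.

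Splice-site and coding windows of the same gene had different medians in UBR4 and MYCBP2. In UBR4 the median difference was 0.09 over 155 splice-site windows and -0.37 over 66 coding windows. In MYCBP2 it was 0.09 over 52 and -0.27 over 94, and 26 of the 94 coding windows were lower with arsenic without overlap while 12 were higher. Over all shared windows the same 2 medians were 0.05 and -0.10, and 19.5% of coding windows were lower and 13.5% higher without overlap. MDN1 was above 0 in both classes, at 0.29 and 0.17, and POLE was close to 0, at -0.10 and -0.01. No test between classes was made, since neighbouring windows share reads.

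**Figure D4:**
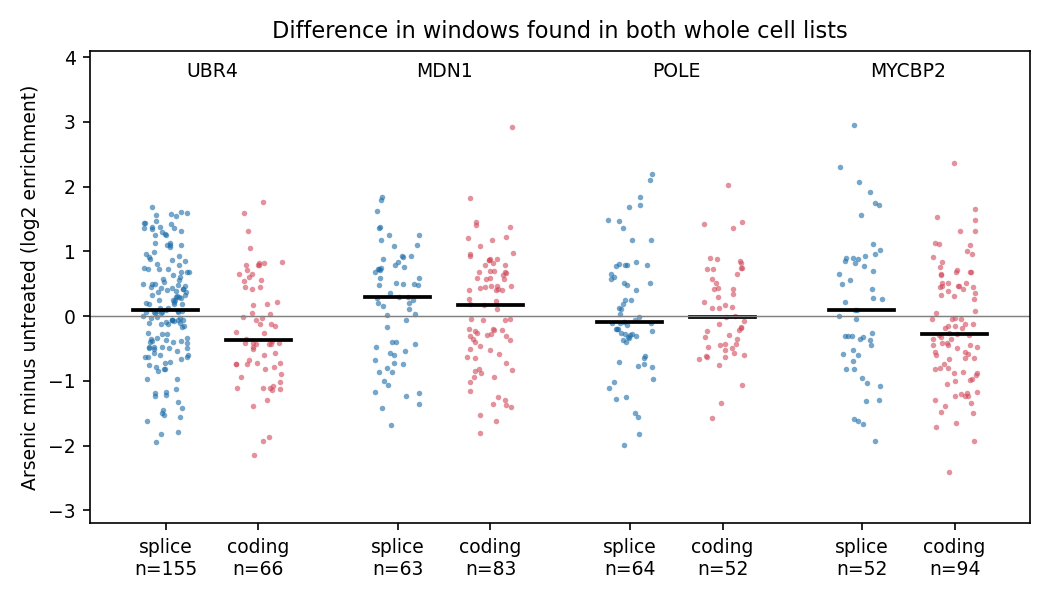
Points are windows found in both whole cell lists, and the vertical axis is their mean log2 enrichment with arsenic minus that without, for splice-site introns in blue and coding sequence in red, with black bars at the median. Most points of all 4 genes lie between -2 and 2, and the coding medians of UBR4 (-0.37) and MYCBP2 (-0.27) lie below 0.

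The shared windows with the largest differences are given with their reads. In UBR4 an intron window near a 3′ splice site, chr1:19081674-19081773, had 2.11 and 2.31 without arsenic and 5.52 and 5.61 with it, a difference of 3.36 (SE 0.83, limma adjusted p = 1.00). Its IP reads were 17 and 42 and its input reads 4 and 0. The largest difference of the other sign was in a coding window, chr1:19101520-19101580, with 4.57 and 5.25 without and 2.36 and 3.16 with arsenic, or -2.15 (SE 0.85, limma adjusted p = 1.00). There the IP reads were nearly equal, 39 and 37, and the input reads were 1 and 8.

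In MDN1 the coding window chr6:89672282-89672363 had 2.19 and 2.20 without arsenic and 4.59 and 5.64 with it, a difference of 2.92 (SE 0.85, limma adjusted p = 1.00). It adjoins MDN1's highest untreated window, at the 3′ splice site before it, whose replicates lay the other way, as that pick favours. Its IP reads were 59 and 69 and its input reads 21 and 3. The largest difference below 0 in MDN1 was -1.81 (SE 0.86), in the coding window chr6:89662087-89662162.

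In MYCBP2 the 5′ splice-site window chr13:77188851-77188950 had 2.56 and 3.54 without arsenic and 5.996 and 6.01 with it, a difference of 2.95 (SE 0.85, limma adjusted p = 1.00). Its IP reads were 21 and 41, its input reads 6 and 0, and with arsenic no other window of the gene with at least 20 IP reads was higher. The coding window chr13:77144445-77144502 stood at 4.97 and 5.60 without arsenic and at 2.68 and 3.05 with it, or -2.42 (SE 0.84). POLE's extremes were smaller, 2.20 (SE 0.89) at a 5′ splice site, chr12:132659195-132659294, and -2.00 (SE 0.86) at a 3′ site, chr12:132649516-132649576. In all of these windows the replicates did not overlap, but the windows were picked for the size of their difference. Their input reads numbered from 0 to 21, and the part of that in the differences was not tested.

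The reads in shared windows show IP and input side by side. With arsenic the IP reads were 114% of the untreated number in UBR4 and the input reads 110%. In POLE both were lower, at 81.2% and 77.6%. In MDN1 and MYCBP2 the IP reads were 100.2% and 110% while the input reads were 84.3% and 91.3%. Over all shared windows the 2 shares were 92.5% and 86.5%. Library totals were not used, so these shares are not levels of RNA, and RNA amount and depth cannot be told apart.

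CAPRIN and G3BP1, measured independently of the choice, had windows in the same genes. CAPRIN had 11 in UBR4, 11 in MDN1, 7 in POLE and 2 in MYCBP2, and G3BP1 had 2 in UBR4, 1 in POLE, 1 in MYCBP2 and 0 in MDN1. Among the 142 genes 118 (83.1%) had a CAPRIN window, with a median of 6.5. Of the 41 among them without a cytoplasmic SNRNP200 window in either list, 25 had one, with a median of 1, and 5 had at least 11, of which UBR4 and MDN1 are 2. Of the 101 with a cytoplasmic window 93 had one, with a median of 10. A G3BP1 window was found in 75 of the 142 genes (52.8%), in 10 of the 41 and in 65 of the 101.

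In MDN1 all 11 CAPRIN windows lay in coding sequence. The highest, chr6:89793762-89793857, had 5.35 and 5.50 from 25 IP and 0 input reads and was in neither whole cell list. The next, chr6:89674298-89674394, had 5.10 and 5.11 and was also an untreated whole cell window of SNRNP200. UBR4's highest CAPRIN window was the one at its start codon shown above, chr1:19210149-19210248, with 4.74 and 5.25 from 29 IP and 0 input reads, and SNRNP200 had no window there in either whole cell list. POLE's, chr12:132643277-132643330 in coding sequence, had 4.53 and 4.83 and was in both whole cell lists.

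MYCBP2 had only 2 CAPRIN windows, both at the start of its mRNA and both below the list's median mean log2 enrichment of 3.71. Its start codon window, chr13:77326676-77326775, had 1.83 and 2.26 for CAPRIN (89 IP and 24 input reads), and the same window had 2.50 and 2.53 for G3BP1 (25 and 7 reads). Its 5′ UTR window, chr13:77327015-77327094, the one whose first bases are shown above, had 1.58 and 1.75 for CAPRIN and 1.798 and 2.12 for SNRNP200 in untreated whole cells. The adjoining 5′ UTR window, chr13:77326935-77327014, had 2.20 and 2.46 for SNRNP200 without arsenic and 4.002 and 4.17 with it, from 88 and 83 IP reads and 10 and 2 input reads. Its 2 sets of replicates did not overlap, as in 32.5% of all shared whole cell windows.

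Of the 31 CAPRIN windows of the 4 genes 16 (51.6%) were also SNRNP200 whole cell windows, against 29.9% of all CAPRIN windows. Genes with many whole cell windows have more of their length covered, and this was not allowed for.

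The genes with the most similar window numbers were found over 103 combinations of list and feature type, as the Euclidean distance of log2(windows + 1) among the genes with at least 100 untreated whole cell windows. MDN1 was nearest to BIRC6 (4.23) and ZZEF1 (4.53), and MYCBP2 to EP300 (4.14) and USP24 (4.48). POLE was nearest to DNMT1 (4.89) and PCNT (5.06), and UBR4 to GCN1 (6.31) and PI4KA (6.77). The median distance to 141 other genes was 7.57 for MDN1, 7.98 for MYCBP2, 8.81 for POLE and 9.78 for UBR4. Within the 4, MDN1 and MYCBP2 were closest (5.36), and POLE and MYCBP2 farthest apart (10.5).

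Relatives and partners of the 4 proteins had fewer windows in the median, which follows from picking the 4 genes for most windows. Gene length was not allowed for. The 7 other listed genes of a list that holds UBR box ubiquitin ligases and KCMF1, a ligase that works with UBR4, had a median of 40 untreated whole cell windows, and 3 of them had an untreated cytoplasmic window and 1 had one with arsenic. Of 14 listed ribosome assembly factors that work with MDN1, the median was 43.5 windows, 1 had an untreated cytoplasmic window and 5 had one with arsenic, while 12 had a CAPRIN window. The 10 other listed subunits of the replicative DNA polymerases had a median of 31.5, and 0 had an untreated cytoplasmic window and 3 one with arsenic. POLE2, which binds POLE in the same enzyme, had 30 without arsenic and 13 with it, and POLD1, the catalytic subunit of polymerase delta, 93 and 20. Of the MYCBP2 pathway, its partner SKP1 had 11 and 16 and RAE1 37 and 24, with no cytoplasmic window.

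Among 75 other listed genes with very long coding sequence the median was 98 untreated whole cell windows, and 43 had an untreated cytoplasmic window. HUWE1, another very large ubiquitin ligase, had 376 whole cell windows without arsenic, 7 cytoplasmic ones and 53 of CAPRIN. DYNC1H1, the dynein heavy chain, had 256, 6 and 73. Of the 36 such genes with at least 100 untreated whole cell windows, 6 had no cytoplasmic window in either list, and the one with the most whole cell windows, HERC2, had 151. All of these lists were compiled with earlier results of these data known, and their numbers are a description.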

How the data were processed

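Adapter trimming used fastp 0.11.5 and alignment STAR 2.7.6, on hg38, per the submitters' processing notes. Which program called windows is not given in the sources. The 6 deposited lists have no column names, so columns were identified from their values. The authors deposited raw counts of input and IP reads per window, summed over replicates. The deposited log2 values are enrichment of IP over input, as the lowest, mean and highest replicate. For p-values and q-values the authors deposited the extremes over replicates, and every q is under 0.2. GC was deposited as a fraction of bases. A deposited score gives the number of replicates in which the authors found a window enriched. Library totals were not used here, so depth is unknown, and exact binomial intervals (95%) cover counting error only.

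Groups follow the sample characteristics, since the general treatment field names arsenic for untreated samples too, and the protein named in each title, since 1 antibody number is given for all 3 proteins. Windows were assigned by the gene names in the lists. The G3BP1 list holds 3242 entries for 3023 windows. Shared whole cell windows were compared with limma 3.58.1 in R 4.3.3, two-sided and unpaired, on the lowest and highest replicate of each treatment, with Benjamini-Hochberg adjustment over all 91143. The test was tested on simulated data, with spreads drawn from the fitted prior. Gene coordinates and sequences come from RefSeq tables on GRCh38.p14, and 95.8% of the listed symbols were matched.

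The genes and gene lists were chosen with earlier results of these data known. The text names, per gene, the highest window with at least 20 IP reads in each whole cell list, the shared windows with the largest difference of either sign, and the 2 nearest genes. Windows of CAPRIN and G3BP1, those in UTRs and the regions with most windows were named after their values were seen. Alternatives were q under 0.05, lists of equal length, weights by IP reads, 1 window per gene, windows naming 1 gene, read minimums, a variance trend, removing the median difference, and single replicates.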

Additional observations from a re-analysis of the deposited data

How the results depend on the processing

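No paired analysis was possible because the lists hold the lowest and the highest replicate without their numbers, and leaving out 1 named replicate was not possible for the same reason. The number of windows called stayed at 0 under every limma setting tried. The median difference ranged over the settings from -0.07 to 0.33 in UBR4, from 0.14 to 1.10 in MDN1, from -0.28 to 0.21 in POLE and from -0.31 to 1.65 in MYCBP2, so its sign turned in all but MDN1. The 1.65 is a single window, with 1 window per gene. With q under 0.05 the untreated windows numbered 201 in UBR4, 110 in MDN1, 100 in POLE and 113 in MYCBP2, and those with arsenic 108, 51, 45 and 50. With at least 20 IP and 10 input reads they numbered 13, 12, 41 and 22 untreated and 18, 5, 25 and 24 with arsenic. Lists of equal length left POLE 141 untreated windows.

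The splice-site share with q under 0.05 was 63.2% in UBR4 untreated and 83.3% with arsenic, and with arsenic 56.9% in MDN1 and 51.1% in POLE. In lists of equal length UBR4's untreated share was 57.8%. With the read minimums it was 23.1%, 8.33%, 21.95% and 9.09% untreated in UBR4, MDN1, POLE and MYCBP2, and 11.1%, 40%, 20% and 0% with arsenic. Weighted by IP reads MYCBP2 had 25.5% and 27.7%. Splice-site windows with arsenic as a percentage of untreated crossed 100 in lists of equal length in UBR4 (118%), POLE (117%) and MYCBP2 (138%), weighted by IP reads in UBR4 (112%) and MYCBP2 (105%), and with q under 0.05 in MDN1 (64.4%). POLE had 57.5% with q under 0.05 and 55.6% with the read minimums, and MYCBP2 59.0% with q under 0.05. Apart from the IP reads of all splice-site windows given above, values over all windows are not given for these settings. Shortening the untreated list cannot lower this percentage. The causes were not tested. With 2 replicates and few input reads per window, single windows are imprecise.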
